A study of Sus scrofa with 12 samples.

Results

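Of the 31908 genes in the count table, 47 were matrix metalloproteinases (MMPs), ADAM and ADAMTS proteases, ADAMTS-like proteins (ADAMTSL) or tissue inhibitors of metalloproteinases (TIMPs). They were chosen by gene symbol and by a sum of at least 60 counts over the 12 libraries. A further 17 rows carried a matching symbol and had at most 23 counts in all, and 10 of these rows were at 0 in every library. The libraries were made from porcine aortic valve interstitial cells (paVICs), primary wild-type fibroblast-like cells of the valve leaflet, after 24 h in low-serum medium. The 4 groups were vehicle, 10 μM lysophosphatidylcholine (LPC, a lipid used to induce calcific nodules in these cells), 60 μM dantrolene (an inhibitor of ryanodine receptors) and both agents together (LPC + dantrolene), with n = 3 libraries per group. Every group held DMSO and ethanol, at 0.6% and 0.1% in vehicle. The libraries came from 3 experiments on different days, each with a separate isolation pooled from the valves of several hearts and 1 library per group. Libraries with the same number were taken to share an isolation, which the labels do not state.

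MMPs are zinc proteases that cut collagens and other matrix proteins, and most are secreted or membrane-bound as inactive precursors. TIMPs bind their active sites and block them. ADAMTS proteases are secreted and include enzymes that cut proteoglycans such as versican and aggrecan and enzymes that trim procollagen, whereas ADAMs are membrane proteins, several of which shed the outer part of other membrane proteins. ADAMTSL proteins resemble ADAMTS proteases but lack the protease domain and sit in the microfibril network. In the aortic valve, interstitial cells make and remodel the leaflet matrix, and this remodelling is a known feature of valve thickening.

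Between 16489684 and 24105935 counts per library fell on genes, and the members held between 0.495% and 0.680% of them. The authors had adjusted the counts for batch effects before they deposited them. Their methods do not name the batch, which was taken to be the isolation. Of the 47 members, 46 passed the filter on low counts and were tested together with all other genes (13216 in all). Expression is given as CPM, a gene's counts divided by the library total, which was first scaled by TMM factors. CPM is not corrected for transcript length, so levels are compared between libraries and not between genes. The limit of 3 counts amounted to 0.114 to 0.186 CPM, for counting error only. A call means an adjusted p (Benjamini-Hochberg) below 0.05 in the quasi-likelihood test of edgeR. All 10 markers of fibroblast-like interstitial cells were tested, and the summed level of that list was between 43900 and 81250 CPM. Of these 10, LUM and POSTN were called higher with LPC (log2 fold changes of 1.35 and 1.6, adjusted p = 0.00351 and 0.00188, edgeR). LUM alone was called with dantrolene and with LPC + dantrolene (1.59 and 1.355, adjusted p = 0.000608 and 0.0042, edgeR). Of all genes, 8.54%, 7.54% and 6.23% were called higher in these 3 comparisons with vehicle. Of the 7 leukocyte and macrophage markers, PTPRC and CD163 were at 0 in all libraries. AIF1, ITGAM and CSF1R reached at most 0.229, 0.437 and 1.24 CPM and did not pass the filter. CD14 and CD68 were detected in all libraries, and the list summed to 12.6 to 28.8 CPM. The 7 endothelial markers summed to 139 to 172 CPM in vehicle and 104 to 140 CPM in the treated groups. The endothelial layer had been removed at isolation. CDH5, the cadherin of endothelial junctions, was at 28.9, 37.7 and 28.7 CPM in vehicle and 14.4, 13.0 and 14.1 with dantrolene, and it was called lower (log2 fold change −1.20, adjusted p = 0.0111, edgeR). With LPC + dantrolene it was at −0.997 on the log2 scale (adjusted p = 0.0536, edgeR). CDH5 was the 1 of 6 tested endothelial markers that was called with dantrolene. The log2 fold changes of the others were −0.071 for ERG, −0.26 for PECAM1, −0.31 for TIE1, −0.37 for VWF and 0.10 for TEK (adjusted p of at least 0.761, edgeR). The part of any endothelial or macrophage RNA in the results below was not tested. In these bulk cultures, fewer cells of a type and less RNA per cell cannot be told apart.

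Replicate 2 of LPC + dantrolene stood apart from the other libraries of its group. Its correlation of log2 CPM with replicates 1 and 3 was 0.901 and 0.917, against 0.949 to 0.975 for all other pairs of replicates. It was the library with the highest CPM for 12 of the 46 tested members and with the lowest for 5. Values without it are given beside the main results of this group.

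Compared to vehicle, 7 of the 46 tested members were called in at least 1 treatment group. ADAM10, ADAMTS5, ADAMTS6 and MMP16 were upregulated, and ADAMTS1, MMP28 and TIMP4 were downregulated. ADAM10 and ADAMTS6 were called in all 3 treatment groups. The shares of all genes called in at least 1 group or in all 3 were not computed, so these counts stand without a background. Shares for each comparison are given below. All 3 comparisons use the same vehicle libraries, so their changes are not independent of each other.

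ADAM10 (ENSSSCG00000004595) encodes the main sheddase of Notch receptors and cadherins. It lies at 113289480 to 113407940 on chromosome 1 in the RefSeq annotation of Sscrofa11.1. Its CPM in replicates 1, 2 and 3 was 27.4, 18.8 and 15.9 in vehicle and 63.3, 60.9 and 52.6 with LPC. It was 38.4, 74.1 and 47.5 with dantrolene and 54.5, 15.4 and 63.1 with LPC + dantrolene. All LPC and all dantrolene libraries were above all vehicle libraries, whereas replicate 2 of LPC + dantrolene was below them. The fold increase over vehicle was 2.84 with LPC, 2.57 with dantrolene and 2.14 with LPC + dantrolene. The log2 fold changes were 1.51 ± 0.36, 1.36 ± 0.36 and 1.10 ± 0.35 (standard error, n = 3 per group, adjusted p = 0.00153, 0.00546 and 0.0397, edgeR). The call with LPC + dantrolene was lost with the isolation as a block (adjusted p = 0.141, edgeR), with DESeq2, when just those 2 groups were fitted, and without replicate 1, 2 or 3 of vehicle, 1 or 2 of LPC, or 1 or 3 of its own group (adjusted p up to 0.525, edgeR), and that with dantrolene without replicate 2 of vehicle or of dantrolene (up to 0.147, edgeR). Without replicate 2 of LPC + dantrolene its log2 fold change in that group was 1.55 (adjusted p = 3.66e-05, edgeR).

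ADAMTS6 (ENSSSCG00000016943, chromosome 16, 43702519 to 44010820) encodes a secreted protease that acts on the microfibril network. Its CPM was 20.5, 18.1 and 11.8 in vehicle, 51.6, 39.6 and 24.7 with LPC, 40.5, 44.6 and 52.2 with dantrolene, and 65.0, 15.4 and 87.3 with LPC + dantrolene. The vehicle libraries were below all LPC and all dantrolene libraries, and replicate 2 of LPC + dantrolene was within the vehicle range. ADAMTS6 rose 2.30-fold with LPC, 2.73-fold with dantrolene and 3.33-fold with LPC + dantrolene compared to vehicle. These were log2 fold changes of 1.20 ± 0.37, 1.45 ± 0.37 and 1.74 ± 0.37 (adjusted p = 0.0216, 0.00428 and 0.00055, edgeR). The calls with dantrolene and with LPC + dantrolene held in all 19 alternatives that were run, the highest adjusted p being 0.0467 and 0.0353 (edgeR). The call with LPC was lost in 8 of them, among them the block (adjusted p = 0.0734, edgeR), DESeq2, total counts alone, and the fits without replicate 1, 2 or 3 of vehicle or 1 or 2 of LPC (up to 0.29, edgeR).

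ADAMTS5 (ENSSSCG00000012027) encodes an aggrecan- and versican-cutting protease and had low counts (11 to 150 per library). Its CPM was 2.05, 0.993 and 0.639 in vehicle, 4.10, 3.58 and 2.26 with LPC, 3.997, 2.97 and 4.80 with dantrolene, and 5.84, 0.808 and 7.52 with LPC + dantrolene. All LPC and all dantrolene libraries were above all vehicle libraries, and replicate 2 of LPC + dantrolene again lay within the vehicle range. ADAMTS5 was upregulated 3.15-fold with dantrolene and 3.81-fold with LPC + dantrolene (log2 fold changes of 1.65 ± 0.53 and 1.93 ± 0.53, adjusted p = 0.0317 and 0.01, edgeR). With LPC the log2 fold change was 1.41 ± 0.53, which fell short of the threshold (edgeR adjusted p = 0.0897) but passed it without replicate 2 of LPC + dantrolene (adjusted p = 0.0107, edgeR). The calls with dantrolene and LPC + dantrolene were lost in 10 and 7 of 19 alternatives, among them the block (adjusted p = 0.075 and 0.0721, edgeR). That with dantrolene was lost with DESeq2 (adjusted p = 0.0689, DESeq2) and on total counts alone (adjusted p = 0.0539, edgeR). That with LPC + dantrolene was lost when just that group and vehicle were fitted (adjusted p = 0.0843, edgeR). Both calls were also lost without replicate 2 or 3 of vehicle or 2 of LPC, that with dantrolene without replicate 1 of LPC or any 1 of dantrolene, and that with LPC + dantrolene without replicate 1 or 3 of its own group (up to 0.209, edgeR).

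MMP16 (ENSSSCG00000006132, chromosome 4, 48556826 to 48867959), a membrane-type MMP that can activate the precursor of MMP2, had low counts (14 to 194 per library). Its CPM was 2.91, 0.818 and 1.34 in vehicle, 4.61, 5.65 and 5.35 with LPC, 4.65, 7.39 and 4.37 with dantrolene, and 3.68, 2.42 and 5.17 with LPC + dantrolene. The LPC and the dantrolene libraries did not overlap with the vehicle libraries. MMP16 rose 3.05-fold with LPC and 3.21-fold with dantrolene (log2 fold changes of 1.61 ± 0.46 and 1.68 ± 0.46, adjusted p = 0.0128 and 0.00906, edgeR). With LPC + dantrolene the log2 fold change was 1.14 ± 0.46 (adjusted p = 0.153, edgeR), and 1.42 without replicate 2 of that group (adjusted p = 0.0147, edgeR). The calls with LPC and with dantrolene were lost without replicate 2 or 3 of vehicle and without replicate 2 of the treated group (adjusted p up to 0.156, edgeR).

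**Figure D1:**
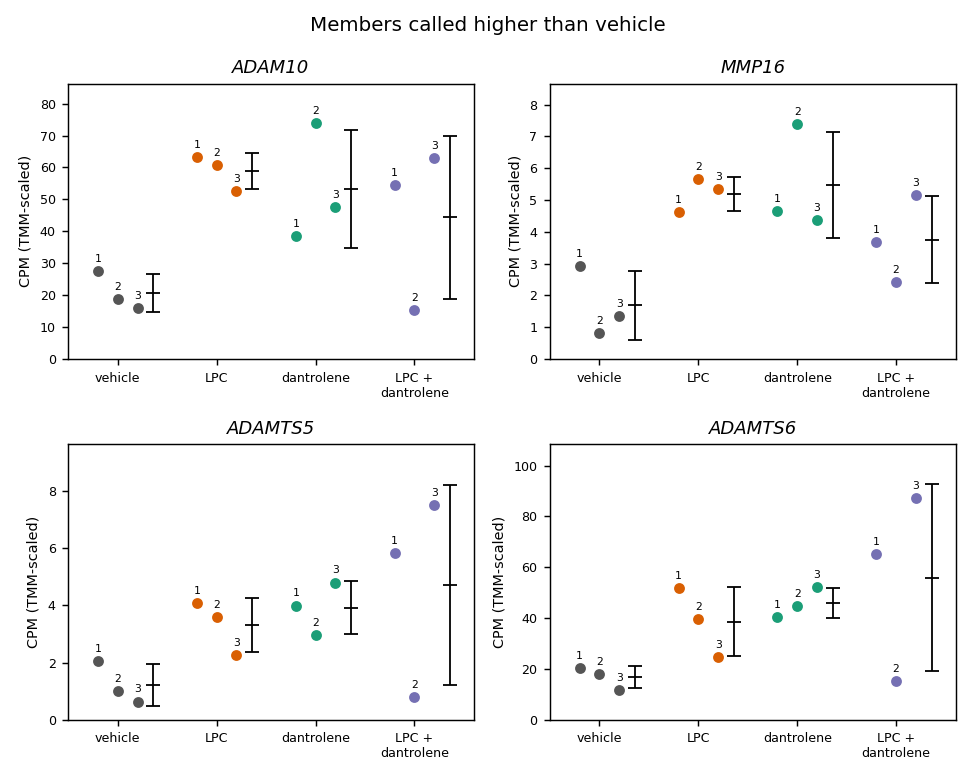
CPM (linear axis from 0) of the 4 members called higher than vehicle, by group. Points are libraries numbered by replicate, and the bar beside them is the mean ± SD of 3 libraries. All LPC and dantrolene points lie above the vehicle points, and point 2 of LPC + dantrolene lies at 15.4 CPM for both ADAM10 and ADAMTS6, below points 1 and 3.

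With dantrolene, 3 members were downregulated compared to vehicle. TIMP4 (ENSSSCG00000033000, chromosome 13, 68179803 to 68191199) encodes a TIMP best known from the heart. It had 35, 18 and 33 counts in the vehicle libraries, 5, 11 and 0 with LPC, 0 in all 3 dantrolene libraries, and 5, 8 and 0 with LPC + dantrolene. In CPM this was 1.67, 1.05 and 1.92 in vehicle, at most 0.597 with LPC and at most 0.497 with LPC + dantrolene. All treated libraries were below all vehicle libraries. Of its 115 counts 86 were in vehicle, so it reached the minimum of 60 counts through the group where it is high, and that choice favours a lower value elsewhere. With dantrolene TIMP4 was at least 32.6-fold lower than in vehicle, taking 3 counts over the group as the limit (adjusted p = 0.000579, edgeR). This call held in all 18 alternatives that gave a value. The log2 fold change was −2.42 ± 1.07 with LPC and −2.62 ± 1.09 with LPC + dantrolene, and neither passed the threshold (adjusted p = 0.205 and 0.177, edgeR). The first passed when just those 2 groups were fitted (adjusted p = 0.0186, edgeR), and the second was −3.44 without replicate 2 of LPC + dantrolene (adjusted p = 0.0749, edgeR).

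MMP28 (ENSSSCG00000034440, chromosome 12, 39739074 to 39766794), also called epilysin, is a secreted MMP. Its CPM was 14.6, 6.83 and 15.3 in vehicle, 4.20, 8.85 and 9.62 with LPC, 6.95, 2.63 and 5.29 with dantrolene, and 1.63, 7.39 and 0.953 with LPC + dantrolene. Replicate 2 was the lowest of the vehicle libraries and the highest of the LPC + dantrolene libraries, so these groups overlapped. MMP28 fell 2.48-fold with dantrolene and 3.71-fold with LPC + dantrolene (log2 fold changes of −1.31 ± 0.44 and −1.89 ± 0.45, adjusted p = 0.0441 and 0.00211, edgeR). Without replicate 2 of LPC + dantrolene, the log2 fold change in that group was −3.18 compared to vehicle (adjusted p = 2.04e-07, edgeR) and −2.56 compared to LPC (adjusted p = 0.000563, edgeR), against −1.20 compared to LPC with all libraries (adjusted p = 0.383, edgeR). The call with dantrolene was lost in 12 of 19 alternatives, among them DESeq2 (adjusted p = 0.442, DESeq2) and the block (adjusted p = 0.151, edgeR). It was also lost with RLE size factors, on total counts alone, and without replicate 1, 2 or 3 of vehicle, 1 or 2 of LPC, 2 or 3 of dantrolene, or 1 of LPC + dantrolene. The call with LPC + dantrolene was lost in 4. These were DESeq2 (adjusted p = 0.157, DESeq2), the fit of just that group and vehicle (adjusted p = 0.0761, edgeR), and the fits without replicate 1 of vehicle or of its own group.

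ADAMTS1 (ENSSSCG00000012026) encodes another versican- and aggrecan-cutting protease, and it neighbours ADAMTS5. The first lies at 190277175 to 190285957 and the second at 190353019 to 190413110 on chromosome 13. ADAMTS1 was at 5.53, 16.7 and 10.8 CPM in vehicle, 13.5, 6.19 and 17.7 with LPC, 3.89, 4.95 and 5.18 with dantrolene, and 7.73, 7.77 and 3.06 with LPC + dantrolene. All dantrolene libraries were below all vehicle libraries. The gene fell 2.35-fold with dantrolene (log2 fold change −1.23 ± 0.40, adjusted p = 0.0334, edgeR), whereas its neighbour ADAMTS5 rose. The ADAMTS1 call was lost in 11 of 19 alternatives, among them the block (adjusted p = 0.114, edgeR), DESeq2, RLE size factors, total counts alone, and the fits without replicate 2 or 3 of vehicle, 1 or 2 of LPC, or any 1 of dantrolene. Without replicate 2 of vehicle the log2 fold change was −0.80 (adjusted p = 0.46, edgeR).

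**Figure D2:**
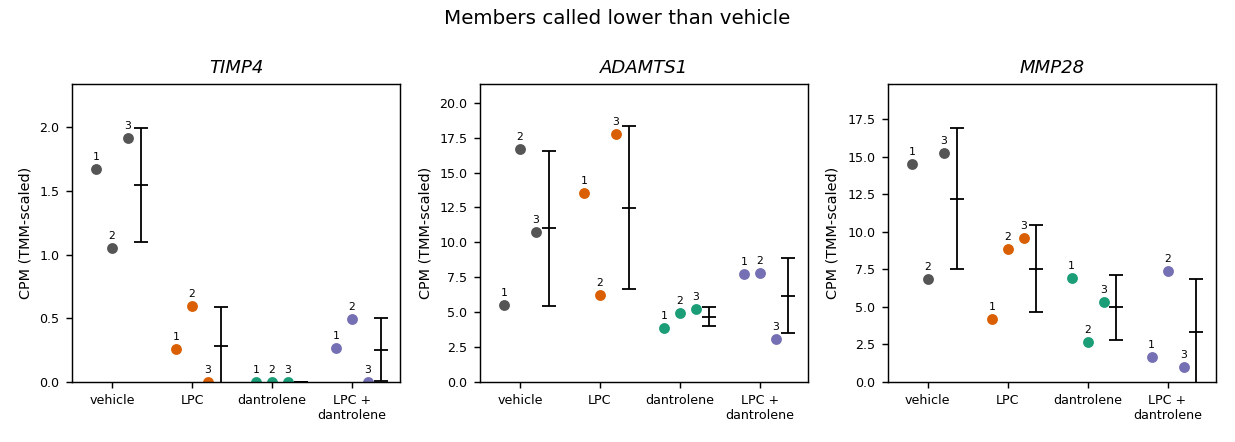
CPM (linear axis from 0) of the 3 members called lower than vehicle, by group, with libraries as numbered points and the mean ± SD of 3 libraries beside them. TIMP4 is at 0 in all dantrolene libraries, and MMP28 in replicate 2 of LPC + dantrolene (7.39 CPM) lies above replicate 2 of vehicle (6.83 CPM).

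The members with the most counts were MMP2, MMP14 and TIMP1. MMP2 is the gelatinase of fibroblasts, and MMP14 is the membrane-type collagenase that activates it. MMP2 was at 2828, 1738 and 1900 CPM in vehicle, 1083, 1471 and 1341 with LPC, 2509, 1181 and 1785 with dantrolene, and 1345, 2904 and 2309 with LPC + dantrolene. MMP14 was at 1418, 806 and 1024 CPM in vehicle, 570, 814 and 657 with LPC, 1306, 778 and 1037 with dantrolene, and 680, 1274 and 1064 with LPC + dantrolene. In both genes replicate 1 was the highest of the vehicle and of the dantrolene libraries, and replicate 2 was the highest of the LPC and of the LPC + dantrolene libraries. The LPC libraries were below all vehicle libraries for MMP2 but not for MMP14. With LPC the log2 fold changes compared to vehicle were −0.73 ± 0.34 for MMP2 and −0.67 ± 0.33 for MMP14, and neither passed the threshold (adjusted p = 0.237 and 0.301, edgeR). MMP2 had a log2 fold change of 0.75 between LPC + dantrolene and LPC, higher in 3 of 3 pairs of the same isolation and not past the threshold (adjusted p = 0.621, edgeR). It was 0.47 without replicate 2 of LPC + dantrolene (adjusted p = 0.839, edgeR).

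TIMP1, a secreted inhibitor of most MMPs, was at 613, 1365 and 1263 CPM in vehicle, 825, 466 and 801 with LPC, 635, 1009 and 696 with dantrolene, and 1036, 875 and 675 with LPC + dantrolene. The range of its vehicle libraries held all treated libraries except replicate 2 of LPC. TIMP3, an inhibitor that binds to the matrix and also acts on ADAM17 and ADAMTS proteases, was at 346, 176 and 285 CPM in vehicle, 148, 263 and 288 with LPC, 306, 164 and 170 with dantrolene, and 129, 310 and 172 with LPC + dantrolene. TIMP1 and TIMP3 were called in none of the 6 comparisons, with adjusted p of at least 0.365 and 0.725 (edgeR). No row of the count table has the symbol TIMP2.

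**Figure D3:**
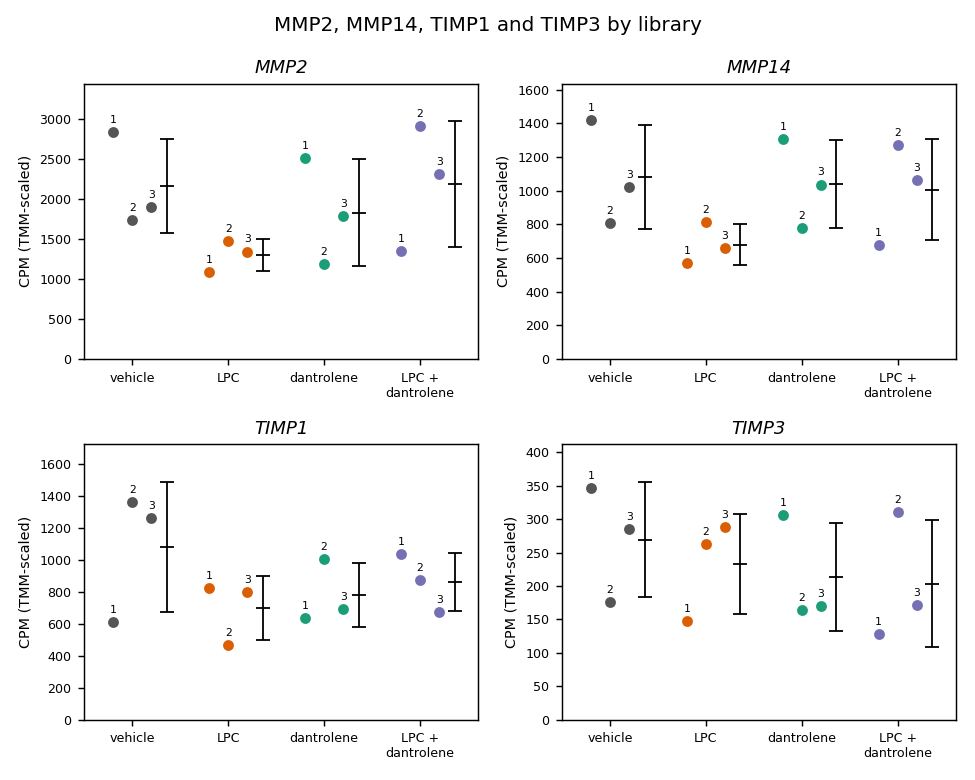
CPM (linear axis from 0) of MMP2, MMP14, TIMP1 and TIMP3 by group, with libraries as numbered points and the mean ± SD of 3 libraries beside them. The LPC points of MMP2 lie between 1083 and 1471, below the vehicle points, and in TIMP1 the vehicle points spread from 613 to 1365.

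Among the ADAMs, 1 of 10 tested members, ADAM10, was called. The share of all genes called in any comparison was not computed, so nothing is read from this count. ADAM9, a widely expressed sheddase, was at 234, 141 and 118 CPM in vehicle, 263, 322 and 290 with LPC, 194, 204 and 205 with dantrolene, and 210, 88.8 and 218 with LPC + dantrolene. The LPC libraries were above all vehicle libraries, and the log2 fold change of 0.83 ± 0.33 was not past the threshold (adjusted p = 0.133, edgeR). It was called in 3 of 19 alternatives, among them the fit without replicate 2 of LPC + dantrolene. ADAM12 and ADAM19 are membrane proteases expressed in mesenchymal cells. ADAM12 was at 287, 476 and 369 CPM in vehicle, 396, 185 and 426 with LPC, 301, 258 and 258 with dantrolene, and 359, 318 and 252 with LPC + dantrolene. ADAM19 was at 445, 697 and 656 CPM in vehicle, 485, 241 and 618 with LPC, 403, 347 and 323 with dantrolene, and 393, 629 and 242 with LPC + dantrolene. All dantrolene libraries were below all vehicle libraries for ADAM19 (log2 fold change −0.75 ± 0.34, adjusted p = 0.222, edgeR). ADAM33 was at 81.4, 86.1 and 91.7 CPM in vehicle, 52.2, 65.9 and 67.8 with LPC, 96.0, 46.8 and 72.3 with dantrolene, and 57.9, 127 and 69.0 with LPC + dantrolene. ADAM17, the sheddase of tumour necrosis factor, ranged from 30.8 to 68.0 CPM over the 12 libraries, and its adjusted p was at least 0.794 in all 6 comparisons (edgeR). The other members of the group, ADAM8, ADAM11, ADAM15 and ADAM23, were not called either.

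Of the 3 procollagen-trimming members, ADAMTS2, ADAMTS3 and ADAMTS14, none was called by edgeR or DESeq2 with all libraries in the comparisons with vehicle (0 at an adjusted p under 0.05, and 2 at an unadjusted p under 0.05 with dantrolene). ADAMTS2, the main procollagen N-propeptidase, was at 227, 255 and 260 CPM in vehicle, 166, 160 and 232 with LPC, 170, 123 and 135 with dantrolene, and 114, 322 and 141 with LPC + dantrolene. All dantrolene libraries were below all vehicle libraries, a difference of −0.79 ± 0.33 on the log2 scale (edgeR adjusted p = 0.155), and the call was gained without replicate 2 of LPC + dantrolene (edgeR adjusted p = 0.0444) and when just those 2 groups were fitted (0.0203). ADAMTS14 was at −1.69 on the log2 scale with dantrolene compared to vehicle (adjusted p = 0.196, edgeR).

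The 7 proteoglycan-cutting members were ADAMTS1, ADAMTS4, ADAMTS5, ADAMTS8, ADAMTS9, ADAMTS15 and ADAMTS20. ADAMTS20, at 0 to 17 counts per library, was not tested. ADAMTS4 was at −0.73 on the log2 scale with LPC compared to vehicle (adjusted p = 0.314, edgeR) and ADAMTS9 of −0.77 with dantrolene (adjusted p = 0.176, edgeR). Among the other ADAMTS proteases, ADAMTS7, which cuts cartilage oligomeric matrix protein, was at 85.8, 84.1 and 68.6 CPM in vehicle, 59.2, 27.0 and 52.2 with LPC, 71.1, 45.0 and 56.7 with dantrolene, and 70.1, 73.9 and 75.0 with LPC + dantrolene. Its LPC libraries were below all vehicle libraries and below all LPC + dantrolene libraries, and neither difference passed the threshold (log2 fold changes of −0.79 ± 0.32 for LPC against vehicle and 0.66 for LPC + dantrolene against LPC, adjusted p = 0.153 and 0.741, edgeR). ADAMTS10, which binds fibrillin microfibrils, was at 99.2, 62.7 and 88.3 CPM in vehicle, 58.0, 93.3 and 64.7 with LPC, 70.0, 51.4 and 62.9 with dantrolene, and 39.8, 105 and 68.1 with LPC + dantrolene. ADAMTSL3 was at 132, 82.5 and 132 CPM in vehicle, 82.8, 126 and 153 with LPC, 116, 68.9 and 70.6 with dantrolene, and 68.9, 127 and 60.1 with LPC + dantrolene. The groups overlapped for ADAMTS10 and ADAMTSL3, and none of the 5 ADAMTSL members was called with all libraries in the model. ADAMTSL5 was at 25.8, 24.2 and 28.5 CPM in vehicle and 18.2, 10.6 and 14.2 with dantrolene, without overlap (−0.87 ± 0.35 on the log2 scale, edgeR adjusted p = 0.122). It was called lower without replicate 2 of LPC + dantrolene and when just those 2 groups were fitted (edgeR adjusted p = 0.0343 and 0.037).

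The collagenases MMP8 and MMP13 and the gelatinase MMP9 were at or near 0. MMP8 had no counts, MMP13 had 23 in all and MMP9 had 2, and MMP7, MMP12, MMP20 and MMP27 had none. The rows with stromelysin symbols were MMP3 and MMP11. The row listed as MMP3 (ENSSSCG00000014985) carries the name MMP1 in the table of gene names, so it cannot be assigned to MMP3, a stromelysin, or MMP1, an interstitial collagenase. It had 0 to 53 counts per library, with at least 1 library at 0 in the vehicle, dantrolene and LPC + dantrolene groups, and was not called. MMP11 ranged from 19.9 to 48.4 CPM and was not called. Among the membrane-type MMPs, MMP16 was the 1 member of 6 that was called, a count that also stands without a background. MMP25 was at −1.49 on the log2 scale with LPC compared to vehicle, with all LPC libraries below all vehicle libraries (adjusted p = 0.239, edgeR). MMP15, MMP17, MMP24 and, among the other MMPs, MMP19 were not called.

 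With LPC, 3 of 46 members (6.52%) were called, all upregulated, beside 8.69% of all genes tested in either direction and 8.54% upward. With all 12 libraries in the model, no member was downregulated with LPC by edgeR or DESeq2 (6 at an unadjusted p under 0.05 in edgeR), beside 0.144% of all genes. With dantrolene, 7 members (15.2%) were called, beside 8.8% of all genes, with 4 (8.7%) upregulated and 3 (6.52%) downregulated, beside 7.54% and 1.26%. The 3 include TIMP4, which became a member through its vehicle counts, so nothing is read from the share downregulated. With DESeq2, RLE size factors, total counts alone or the isolation as a block, TIMP4 was the 1 member called downregulated. With LPC + dantrolene, 4 (8.7%) were called, beside 7.14%, with 3 (6.52%) upregulated and 1 (2.17%) downregulated, beside 6.23% and 0.9%. The groups did not overlap for 12 members in each of the comparisons of LPC and of dantrolene with vehicle (26.1%), beside 27.2% and 27.1% of all genes. In LPC + dantrolene against vehicle this was so for 3 members (6.52%), beside 10.4%, and ADAMTS9, MMP25 and TIMP4 were all below vehicle, beside 5.74%. TIMP4 is among the members without overlap in all 3 comparisons, with the same limit.

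More members were below 0 than above it on the log2 scale. With LPC, 32 of 46 members had a negative log2 fold change and the median was −0.29, against −0.18 over all genes. With dantrolene there were 33 and a median of −0.30, against −0.11, and the median was the same with TIMP4 at its bound. With LPC + dantrolene there were 30 and a median of −0.16, against −0.080. On total counts alone, without TMM factors, the medians of all genes were −0.0023, 0.13 and 0.12, and those of the members −0.13, −0.077 and 0.057, so the sign with LPC + dantrolene depends on the scaling.

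**Figure D4:**
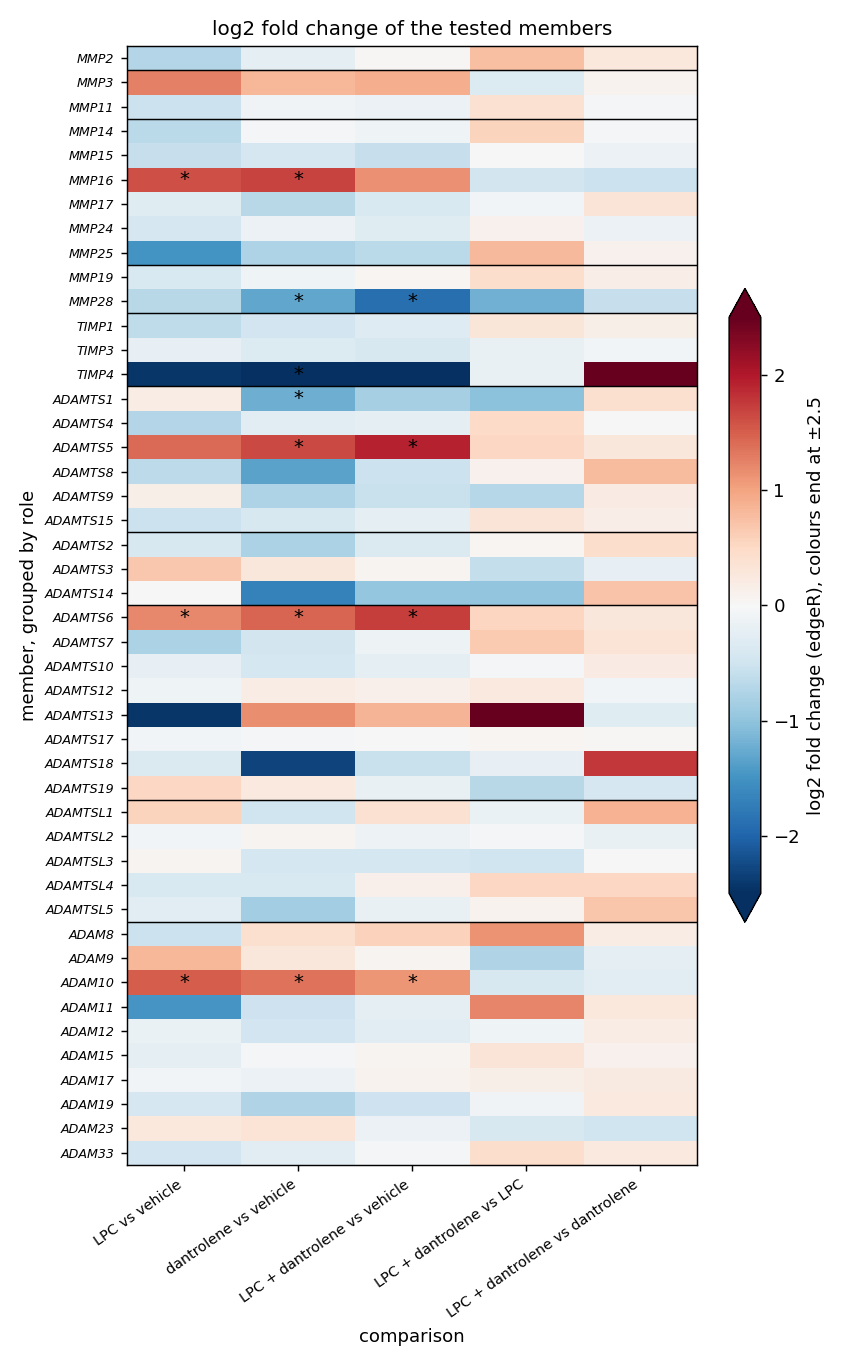
log2 fold change (edgeR, colour) of the 46 tested members (rows, by role) in 5 comparisons (columns), with a star where the adjusted p was under 0.05. Stars mark 3, 7 and 4 members in the comparisons with vehicle and none in LPC + dantrolene against LPC or against dantrolene. TIMP4 and ADAMTS13 pass the ends of the colour scale, at low counts.

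Between LPC + dantrolene and LPC, none of the 46 members was called by edgeR or DESeq2, and 8 had an unadjusted p under 0.05 in edgeR. Of all genes, 0.507% were called, 29 upward and 38 downward, against 5 and 2 on total counts alone. The groups did not overlap for 5 members (10.9%, beside 9.78% of all genes), with ADAMTS7, MMP19 and MMP25 above and ADAM9 and ADAMTS9 below, beside 4.86% and 4.93%. ADAMTS1 had a log2 fold change of −1.02 and ADAM9 of −0.76 (adjusted p = 0.424 and 0.585, edgeR). These were, without replicate 2 of LPC + dantrolene, −1.22 and −0.46 (adjusted p = 0.174 and 0.83, edgeR), and 1 member, MMP28, was called, beside 1.03% of all genes. Between LPC + dantrolene and dantrolene no member was called by either tool, 1 had an unadjusted p under 0.05, and 0.0227% of all genes were called (2 upward and 1 downward, 1 and 0 on total counts alone). Without that library there were 0 members by edgeR, beside 0.0221% of all genes. The groups did not overlap for 0 members, beside 4.71% of all genes.

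The effect of LPC with dantrolene differed from its effect without dantrolene for 3 members (6.52%), beside 4.65% of all genes. ADAM10 and MMP16 were the 2 with a negative difference, beside 4.49% of all genes. The background for a positive one was 0.159%, and nothing is read from it for TIMP4, which was at the lower limit of counts and became a member through its vehicle counts. For ADAM10 the difference between the effects was −1.77 ± 0.50 on the log2 scale (adjusted p = 0.0204, edgeR). Compared to vehicle, ADAM10 was at 1.51 on that scale with LPC, 1.36 with dantrolene and 1.10 with LPC + dantrolene. LPC was above vehicle in 3 of 3 pairs and LPC + dantrolene was above dantrolene in 2 of 3, the exception being replicate 2. For MMP16 the difference was −2.15 ± 0.64 (adjusted p = 0.0322, edgeR). TIMP4 had a positive difference (adjusted p = 0.0184, edgeR), with 0 counts in all dantrolene libraries and up to 8 with LPC + dantrolene. With the isolation as a block none of the 3 passed the threshold (adjusted p = 0.0716, 0.0867 and 0.0514, edgeR), and none did on total counts alone (0.0886, 0.0709 and 0.0777, edgeR). Without replicate 2 of LPC + dantrolene, ADAM10 and MMP16 had differences of −1.44 and −1.98 (adjusted p = 0.025 and 0.0378, edgeR) and TIMP4 was not called (adjusted p = 0.0919, edgeR).

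Without replicate 2 of LPC + dantrolene, 6 of 46 members were called in that group compared to vehicle, beside 15.5% of all genes. MMP16 and ADAMTS2 were then called in addition to ADAM10, ADAMTS5, ADAMTS6 and MMP28. The log2 fold changes of ADAMTS5 and ADAMTS6 were 2.47 and 2.23 (adjusted p = 2.48e-05 and 4.37e-08, edgeR). With LPC 5 members and with dantrolene 9 were then called, beside 12.5% and 13.2% of all genes. Without replicate 1 of LPC + dantrolene, 1 member was called in that group compared to vehicle, beside 4.15% of all genes. Without replicate 3 of that group there were 2, beside 3.73%.

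**Figure D5:**
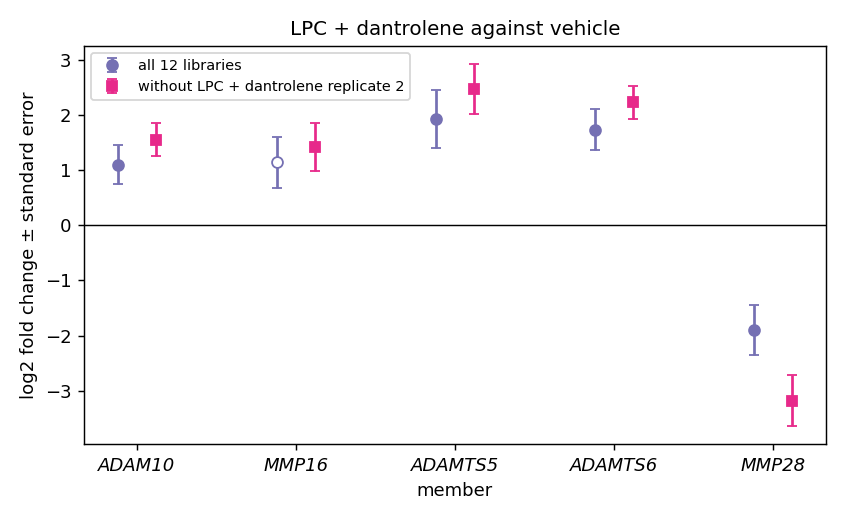
log2 fold change ± standard error of 5 members in LPC + dantrolene compared to vehicle, with all 12 libraries (circles) and without replicate 2 of LPC + dantrolene (squares). Filled symbols have an adjusted p under 0.05. Each square lies farther from 0 than its circle, with MMP28 moving from −1.89 to −3.18 and MMP16 (1.14, open) passing the threshold at 1.42. In its group this library was nearest to vehicle for all 5 members, so leaving it out moves each value away from 0.

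The spans of the called genes in the RefSeq annotation differed in size. The 4 upregulated members spanned 60092 to 311134 bases, and the 3 downregulated members 8783 to 27721 bases. The other tested members spanned 3039 to 1007583 bases with a median of 40245, leaving out the row listed as MMP3. These spans include introns, and the deposited counts give no transcript length.

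Genes that activate, inhibit or partner with these proteases were mostly not called. Among the 22 tested activators and inhibitors, 1 gene, FAP, was upregulated with LPC, beside 8.54% of all genes, so nothing is read from this count. FAP, a membrane serine protease of activated fibroblasts, was at 38.9, 26.8 and 27.7 CPM in vehicle and 56.2, 70.5 and 64.7 with LPC (log2 fold change 1.03, adjusted p = 0.0359, edgeR). None of the 9 partners of ADAM10 and ADAM17 and none of the 15 tested transcription factors known to bind MMP promoters, AP-1 subunits among them, was called in any of the 6 comparisons by edgeR or DESeq2. At an unadjusted p under 0.05 in edgeR there were 0 in the comparisons with vehicle, and at most 1 partner and 2 factors in the others.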

How the data were processed

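RNA sequencing of 12 paVIC libraries was analysed. The authors deposited whole-number counts per pig gene, which ComBat had corrected for a batch taken to be the isolation and which were not scaled for library size. Their methods name STAR, whereas the submitters' processing notes name HISAT2 2.0.5 and Sscrofa11.1, so the aligner behind the table is uncertain, and strandedness of the counting is not given in the sources used here. Because ComBat had already spent degrees of freedom that no later test subtracts, the p-values given here may be too low. The authors' tables of 4 comparisons (fold changes and p-values) were not used.

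Members were the rows whose symbol is MMP, TIMP, ADAM, ADAMTS or ADAMTSL with a number and whose counts sum to at least 60. Members and lists were chosen with earlier results of these data known. Values per library are given for members called in any comparison, for TIMPs, and for the 12 members with the most counts. Genes named outside this rule were chosen after their values were seen. A result from the list of activators and inhibitors is not reported here.

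In R 4.3.3, genes passing filterByExpr of edgeR 4.0.16 (13216) were scaled by TMM, and 1 quasi-likelihood model with a term per group was fitted to the 12 libraries after a check on simulated data. Of its 6 contrasts, 3 set a treatment beside vehicle, 2 set the combination beside a single agent, and 1 was the interaction. Each library was left out in turn, and results were also recomputed with the isolation as a block, with just the groups compared, with DESeq2 1.42.0, by total counts or RLE, and with a stricter filter (10 counts in every library) or none. Gene positions were matched by symbol to RefSeq (Sscrofa11.1) for all 47 members.

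By the methods, each isolation gave 1 replicate per group, and the labels number the replicates. That the same number means the same isolation was inferred, and same-numbered libraries were taken as pairs. Deviations from group means correlated with a median of −0.152 (−0.536 to 0.207) within isolations and 0.108 between isolations, which the authors' adjustment itself can fix. No 2 replicates agreed within sampling noise (chi-square of at least 36.1 per degree of freedom). Each isolation pooled animals, and the counts had been adjusted for a batch taken to be the isolation. The p-values therefore measure the spread of adjusted libraries within groups, and not that between animals or between pools.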

Additional observations from a re-analysis of the deposited data

Results flagged for a closer look

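The effect of LPC differed between cells with and without dantrolene for 3 members, by edgeR's test of the interaction. The difference was −1.77 on the log2 scale for ADAM10 and −2.15 for MMP16, both with a larger effect of LPC without dantrolene. For TIMP4 the fitted difference was 7.71, a value that depends on the prior count because all dantrolene libraries were at 0. The vehicle libraries enter both the effect of LPC and the comparison with dantrolene alone, and the part of these libraries in the difference was not tested. Without replicate 2 or 3 of vehicle, replicate 1 or 2 of LPC, or replicate 2 of dantrolene, none of the 3 passed the threshold. Groups of 3 libraries were too small to be screened for outlying samples.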

How the results depend on the processing

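Of the 17 log2 fold changes that passed the threshold, 4 did so in every alternative that gave a value, namely ADAM10 with LPC, ADAMTS6 with dantrolene and with LPC + dantrolene, and TIMP4 with dantrolene. The choice of members by summed counts favours the lower call of TIMP4, and no alternative changes that. None of the 17, nor of the 29 others with an unadjusted p under 0.05, changed direction. With LPC, 3 members were called, beside 8.69% of all genes. When just those 2 groups were fitted there were 6, beside 12.9%. Without 1 library there were 1 to 5, beside 5.04% to 12.5%. With dantrolene 7 were called, beside 8.8% of all genes. There were 4 with DESeq2, 4 on total counts alone and 4 with the isolation as a block, beside 8.25%, 8.13% and 6.18%. Without 1 library there were 2 to 9, beside 3.16% to 13.2%. With LPC + dantrolene 4 were called, beside 7.14% of all genes. There were 2 with DESeq2 and 2 with the isolation as a block, beside 6.71% and 4.68%. When just those 2 groups were fitted there was 1, beside 4.4%. Without 1 library there were 1 to 6, beside 3.73% to 15.5%. The fewest calls with LPC (1) came without replicate 2 or 3 of vehicle or 2 of LPC, with dantrolene (2) without replicate 2 of vehicle or of dantrolene, and with LPC + dantrolene (1) without replicate 1 of that group. Between LPC + dantrolene and LPC the number without 1 library was 0 to 1, MMP28 without replicate 2 of LPC + dantrolene, beside 1.03% of all genes. For the interaction 3 members were called, beside 4.65% of all genes. There were 0 on total counts alone and 0 with the isolation as a block, beside 1.77% and 2.12%. Without 1 library there were 0 to 3, beside 0.0293% to 6.87%. The causes were not tested. The block changed no call beyond those given with each gene. Depth limits TIMP4, MMP16, ADAMTS5, ADAMTS13 and ADAMTS18 among others, each with at least 1 library under 20 counts.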
